A study of Mus musculus with 15 samples.

Results

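The genes described here are 34 mouse imprinted genes at 15 loci, 9 of which hold 2 or more of them, out of 43432 genes counted in RNA sequencing libraries of 266-6 cells, an established mouse pancreatic acinar cell line. They were taken from a list of known imprinted genes that was drawn up around H19 and Zim1, and these 2 were picked because they were higher with 2 receptor agonists given together than with vehicle in these same libraries. All 34 had a row in the count table and 30 passed the filter on low counts. The 4 that did not pass were Meg3, with at most 4 reads in any library, Ndn, with at most 7, and Magel2 and Peg12, with 0 reads in all 15 libraries.

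An imprinted gene is transcribed mainly from the copy inherited from one parent, because a control region at the locus carries DNA methylation on the maternal or the paternal chromosome. At the H19-Igf2 locus the unmethylated maternal control region binds the insulator protein CTCF, H19 is transcribed from the maternal copy and the growth factor gene Igf2 from the paternal copy, and both use shared enhancers. Many imprinted genes act on fetal growth, and a good part of them fall to low levels in adult tissue. Counts per gene do not tell the parental copies apart, so every value below is the sum over both.

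All groups were grown in the same way, kept in stripped medium for 24 h and then given a ligand or vehicle for 24 h, with 3 libraries each. The groups were DMSO, the vehicle, AM580, an agonist of retinoic acid receptor alpha, CD3254, an agonist of the retinoid X receptors, AM580 and CD3254 together, called the joint treatment below, and 9-cis retinoic acid, which binds both kinds of receptor. These receptors pair on DNA as heterodimers, and the series asks how ligands of both partners act together across the genome. The line is a single one, and whether replicates were separate cultures is not given in the sources used here.

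Reads assigned to genes numbered from 28501170 to 46801058 in 14 libraries, while replicate 3 of 9-cis retinoic acid had 14600962. Along the first principal component, with 48.3% of the variance, 5 libraries stood at -90.0 to -59.4 and the other 10 at 25.3 to 40.2. These 5 are replicate 1 of DMSO, AM580, CD3254 and 9-cis retinoic acid and replicate 2 of the joint treatment, and are called the 5-library set. The labels name no batch. Each treatment has 1 library in the 5-library set, and the fits below carry the set as a term. Levels are given as CPM, the counts of a library divided by its total of gene reads after TMM scaling. Of 13 acinar markers 12 had a median of at least 1 CPM, with sums of 6977 to 12231 CPM in the 5-library set and 8257 to 12172 CPM in the other 10, while Pnlip stayed under 1 CPM. Of markers of other cell types, Ins1 was at 0, and Gcg, Sst, Ptprc, Csf1r and Cdh5 were at or near 0 in every library.

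Sequences at both loci that hold the picked genes are shown first, because they place the start sites and the processed product of the transcripts described below. H19 lies on chromosome 7 at 142575529 to 142578143 on the minus strand of GRCm38 and is annotated as a long intergenic noncoding RNA, with Igf2 at 142650766 to 142666816 on the same strand. H19 RNA is also the precursor of miR-675, whose arms begin 1011 and 1045 bases from the H19 start, in RefSeq on GRCm38.p6, at chr7:142577112-142577133 and chr7:142577078-142577099 on the minus strand. Capitals mark the seed, bases 2 to 8, which pairs with target RNAs, and the seeds of the arms differ.
miR-675-5p: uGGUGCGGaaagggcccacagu
miR-675-3p: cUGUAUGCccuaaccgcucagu
Zim1 (6671269 to 6696450, minus strand), Peg3 (6703892 to 6730431, minus strand) and Usp29 (6730578 to 6967219, plus strand) follow each other on the same chromosome. In RefSeq the start sites of Peg3 and Usp29 stand 164 bases apart and are transcribed away from each other, so the 163 bases between them serve as the upstream region of both genes. In the lines below, capitals mark CpG dinucleotides, the sites of DNA methylation. The upstream region of Zim1 held 14 CpG in its 250 bases and the interval between Peg3 and Usp29 held 5.
Zim1, 250 bases before the start, chr7:6696433-6696682, minus strand: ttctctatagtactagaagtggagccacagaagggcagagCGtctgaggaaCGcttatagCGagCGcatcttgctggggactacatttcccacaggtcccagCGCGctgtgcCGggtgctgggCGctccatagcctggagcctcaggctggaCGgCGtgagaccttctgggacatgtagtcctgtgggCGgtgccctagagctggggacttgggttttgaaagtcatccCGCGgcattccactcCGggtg
Peg3 to Usp29 interval, chr7:6730420-6730582, plus strand: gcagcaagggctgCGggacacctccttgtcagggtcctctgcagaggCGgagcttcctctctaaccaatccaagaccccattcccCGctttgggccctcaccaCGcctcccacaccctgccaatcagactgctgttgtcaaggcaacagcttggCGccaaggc
Promoter windows of 300 bases, 250 before and 50 after a RefSeq start, were in the table for 28 of the 34 genes, in 43 windows, and the table held none for H19, Cdkn1c, Peg10, Sgce, Rtl1 and Impact. They were searched on both strands for the nuclear receptor half-site AGGTCA, its form GGGTCA, the form AGTTCA and the form GGTTCA, and for direct repeats of any 2 of them spaced by 1, 2 or 5 bases. A half-site was in 11 of the 43 windows (25.6%), against 43.7% of 32851 windows of all genes. No window of these genes held a direct repeat, against 0.222% of all windows for spacing 1, 0.268% for spacing 2 and 0.0974% for spacing 5. The windows of Zim1, Peg3 and Usp29 held no half-site, which says only that these letters are not in those windows.

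Of the genes of the list that were above 1 CPM in every library, H19 had the widest ratio of highest to lowest level. Its level was 245, 54.6 and 82.4 CPM in DMSO replicates 1, 2 and 3. It was 691, 77.7 and 81.4 with AM580 and 456, 70.5 and 68.5 with CD3254. With the joint treatment it was 203, 923 and 200, and with 9-cis retinoic acid 597, 102 and 157. In every treatment the library of the 5-library set was the highest of the 3, by 3.58 times the mean of the others in DMSO, 8.69 times with AM580, 6.56 times with CD3254, 4.58 times with the joint treatment and 4.62 times with 9-cis retinoic acid. Among the other 10 libraries the 2 with the joint treatment were the highest, at 203 and 200 CPM, followed by both with 9-cis retinoic acid, and those with AM580 or CD3254 alone (68.5 to 81.4 CPM) lay within the range of DMSO (54.6 to 82.4 CPM).

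**Figure D1:**
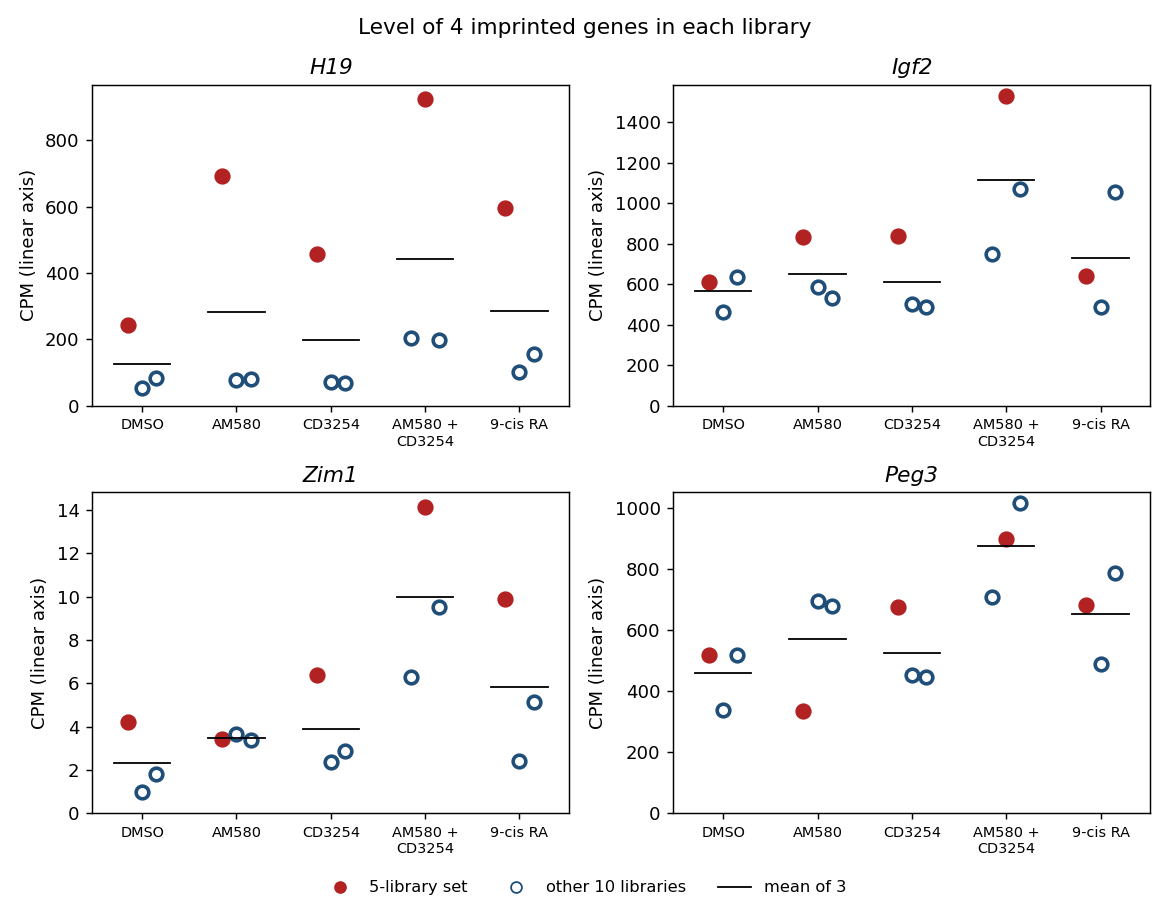
Level in CPM on a linear axis of H19, Igf2, Zim1 and Peg3 in each of 15 libraries, by treatment; filled points are the 5-library set, open points the other 10 libraries, and the bar is the mean of 3. The filled H19 points lie between 245 and 923 CPM and the open ones between 54.6 and 203 CPM, while for Igf2 and Peg3 the 2 kinds of point overlap.

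Zim1, a maternally expressed gene for a protein with Krüppel-type zinc fingers, was low throughout. Its level was 4.21, 0.966 and 1.81 CPM in DMSO, 3.43, 3.66 and 3.37 with AM580 and 6.39, 2.39 and 2.86 with CD3254. It was 6.31, 14.2 and 9.54 CPM with the joint treatment and 9.89, 2.43 and 5.13 with 9-cis retinoic acid, from 32 to 395 reads per library. All 3 libraries of the joint treatment were above all 3 of DMSO, and their lowest was above every library of AM580, while CD3254 replicate 1 lay just above that lowest one. The 5-library set and the other 10 overlapped, at 3.43 to 14.2 and 0.966 to 9.54 CPM, and with AM580 the library of the 5-library set was between the others.

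As a description of the contrast on which both were picked, the fitted log2 change of H19 with the joint treatment against DMSO was 1.66 ± 0.25 (SE), a 3.15-fold difference, and that of Zim1 was 2.21 ± 0.37, a 4.64-fold difference. Both were past the threshold there, an edgeR quasi-likelihood false discovery rate (FDR) of 0.05 over the 16736 genes tested, which 0.125% of all genes passed. Zim1 was the last gene of the list inside the threshold, with an FDR of 0.0278, and Igf2, the next by p, was far outside it, with 0.567. Nothing is read from these calls, because the same libraries chose the genes. Neither call was made without the library set term, in the 10-library set alone, or without replicate 1 or 2 of DMSO or replicate 1 or 3 of the joint treatment. Zim1 was also not called without DMSO replicate 3, replicate 2 of the joint treatment or any 1 of the CD3254 replicates.

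Each agonist alone gave smaller fitted differences, again as a description. Against DMSO the log2 change of H19 was 0.66 ± 0.25 with AM580, 0.29 ± 0.25 with CD3254 and 1.01 ± 0.25 with 9-cis retinoic acid. For Zim1 these were 0.82 ± 0.36, 0.77 ± 0.36 and 1.31 ± 0.37. Against AM580 the joint treatment differed by 1.00 for H19 and 1.39 for Zim1, and against CD3254 by 1.36 and 1.44. 9-cis retinoic acid was below the joint treatment, by log2 changes of -0.64 for H19 and -0.90 for Zim1. These comparisons share the DMSO or the joint libraries with the contrast used for picking, so no test is given.

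The sizes of these differences varied between the library sets. In a fit of the 10-library set alone, the log2 change of H19 against DMSO was 0.22 ± 0.23 with AM580, 0.02 ± 0.23 with CD3254, 1.56 ± 0.23 with the joint treatment and 0.91 ± 0.23 with 9-cis retinoic acid. The single pairs in the 5-library set, which have no replicate, differed by 1.50, 0.90, 1.91 and 1.28 on the log2(CPM + 0.1) scale. The interaction, the log2 effect that AM580 had on top of CD3254 minus the effect it had on its own, was 0.70 ± 0.35 for H19 in all libraries, 1.32 ± 0.32 in the 10-library set and -0.48 in the 5-library set, and 0.0015 in all libraries without the set term. For H19 the size of the interaction thus depended on which libraries were read, and it turned in sign between the sets. For Zim1 the 10-library set gave 1.33 ± 0.40 with AM580, 0.91 ± 0.41 with CD3254, 2.50 ± 0.41 with the joint treatment and 1.36 ± 0.42 with 9-cis retinoic acid, and the pairs of the 5-library set gave -0.29, 0.59, 1.73 and 1.21. The interaction for Zim1 was 0.62 ± 0.50 in all libraries, 0.26 ± 0.56 in the 10-library set and 1.42 in the 5-library set. Without the set term it was 0.79 in all libraries.

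H19 and Zim1 can be tested where neither DMSO nor the joint treatment enters, and neither passed the threshold in those 3 contrasts. For 9-cis retinoic acid against CD3254 the log2 change of H19 was 0.72 ± 0.25 (95% interval 0.19 to 1.25, edgeR FDR = 0.881) and that of Zim1 was 0.54 ± 0.36 (-0.22 to 1.30, FDR = 0.881). For 9-cis retinoic acid against AM580 they were 0.36 ± 0.25 (-0.17 to 0.89, FDR = 1.00) and 0.49 ± 0.36 (-0.28 to 1.26, FDR = 1.00). For AM580 against CD3254 they were 0.36 ± 0.25 (-0.16 to 0.89, FDR = 0.717) and 0.05 ± 0.35 (-0.71 to 0.81, FDR = 0.966). The intervals leave room for differences of more than 2-fold for H19 and Zim1 in the first of these contrasts and for Zim1 in the second. The libraries thus do not show that the ligands act alike on these genes. In these 3 contrasts 0.0299%, 0.0% and 0.012% of all genes passed.

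Igf2, the fetal growth factor gene that neighbours H19, was at 611, 461 and 637 CPM in DMSO, 836, 586 and 534 with AM580 and 842, 502 and 489 with CD3254. It was at 749, 1532 and 1070 CPM with the joint treatment and 643, 487 and 1058 with 9-cis retinoic acid. All 3 joint libraries were above all 3 of DMSO, and replicate 2, in the 5-library set, was the highest of all 15 for Igf2 as for H19 and Zim1. The log2 change with the joint treatment was 0.93 ± 0.28 (edgeR FDR = 0.567), 0.73 ± 0.32 in the 10-library set and 1.33 in the pair of the 5-library set. It did not pass the threshold, and neither did the log2 changes of 0.17, 0.06 and 0.38 with AM580, CD3254 and 9-cis retinoic acid against DMSO. The value for 9-cis retinoic acid rested on replicate 3, without which it was -0.12. The joint treatment against AM580 gave 0.76 ± 0.28 (FDR = 0.608) and against CD3254 0.87 ± 0.28 (FDR = 1.00). Mir483, which lies in an intron of Igf2, and Mir675, within the exons of H19, were counted at 0 in all 15 libraries, and whether these libraries could hold RNA this short is not given in the sources used here. Mir675 shares 84 bases with H19 exons on the same strand, and how reads in shared bases were counted is not given either.

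Peg3 encodes a large zinc finger protein expressed from the paternal copy, and it shares its locus with Zim1. Its level was 517, 338 and 519 CPM in DMSO, 335, 695 and 679 with AM580 and 675, 454 and 447 with CD3254. It was 708, 899 and 1016 CPM with the joint treatment and 682, 490 and 787 with 9-cis retinoic acid. All joint libraries were above every library of DMSO, AM580 and CD3254, and the library sets overlapped. The log2 change with the joint treatment against DMSO was 0.93 ± 0.29 (edgeR FDR = 0.612), 1.01 ± 0.27 in the 10-library set and 0.80 in the 5-library pair. It did not pass the threshold, and the changes of 0.32, 0.20 and 0.51 with AM580, CD3254 and 9-cis retinoic acid did not either. AM580 replicate 1, at 335 CPM, was the lowest of all libraries for Peg3 and far from the other AM580 libraries.

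Usp29, a paternally expressed gene for a ubiquitin-specific protease that starts beside Peg3, was close to the limit of detection, with 1 to 68 reads. It was 1.24, 0.0302 and 0.276 CPM in DMSO, 0.587, 0.243 and 0.344 with AM580 and 1.27, 0.112 and 0.195 with CD3254. It was 0.376, 2.44 and 0.499 CPM with the joint treatment and 1.46, 0.298 and 0.0855 with 9-cis retinoic acid. Each library of the 5-library set was above every other library, at 0.587 to 2.44 against 0.0302 to 0.499 CPM, whereas the sets overlapped for its divergent neighbour Peg3. With the joint treatment against DMSO the log2 change was 1.20 ± 0.56 (edgeR FDR = 1.00).

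The cluster around Kcnq1ot1, the paternally expressed antisense RNA that silences neighbouring genes in cis, held 5 of the genes. Cdkn1c, the gene for the cell cycle inhibitor p57Kip2, was at 67.2, 64.8 and 69.2 CPM in DMSO, 121, 59.6 and 64.4 with AM580 and 53.1, 48.7 and 51.9 with CD3254. It was 55.6, 56.0 and 42.8 CPM with the joint treatment and 68.6, 70.2 and 78.9 with 9-cis retinoic acid. The 6 libraries that received CD3254 were all below the 9 that did not, with 56.0 CPM as the highest of the former and 59.6 CPM as the lowest of the latter, a pattern seen after the values were known. The tests did not pass: the log2 change was -0.39 ± 0.19 with CD3254 against DMSO (edgeR FDR = 1.00), -0.39 ± 0.19 with the joint treatment against DMSO (FDR = 1.00) and 0.64 ± 0.20 for AM580 against CD3254 (FDR = 0.717). The last was 0.29 without AM580 replicate 1, whose 121 CPM was the highest of all libraries, and 0.30 ± 0.15 in the 10-library set.

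Ascl2, a gene for a basic helix-loop-helix factor of trophoblast and intestinal stem cells, showed the largest ratio between the library sets. It was at 2.79, 2.14, 2.81, 2.44 and 3.98 CPM in the 5 libraries of the set, for DMSO, AM580, CD3254, the joint treatment and 9-cis retinoic acid, and at 0 to 0.251 CPM in the other 10, a ratio of medians of 31.6. Because Ascl2 passed the low-count filter only through the 5-library set, that ratio was bound to be high and is a description only. No treatment separated from the others for Ascl2, and AM580 against CD3254 gave a log2 change of -0.54 ± 0.55 (edgeR FDR = 0.737). Phlda2, a growth-restraining gene of the placenta, ranged from 0.342 to 1.50 CPM and Slc22a18, a transporter gene, from 1.02 to 4.49 CPM. Slc22a18 was highest in the library of the 5-library set in all 5 treatments, though the ranges of the sets met. Kcnq1ot1 itself ranged from 3.74 to 21.7 CPM, with the joint replicate 2 highest and DMSO replicate 2 lowest. For AM580 against CD3254 the log2 changes of Phlda2, Slc22a18 and Kcnq1ot1 were 0.49 ± 0.48, 0.38 ± 0.34 and -0.34 ± 0.55, and none passed (edgeR FDR = 0.729, 0.719 and 0.823).

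**Figure D2:**
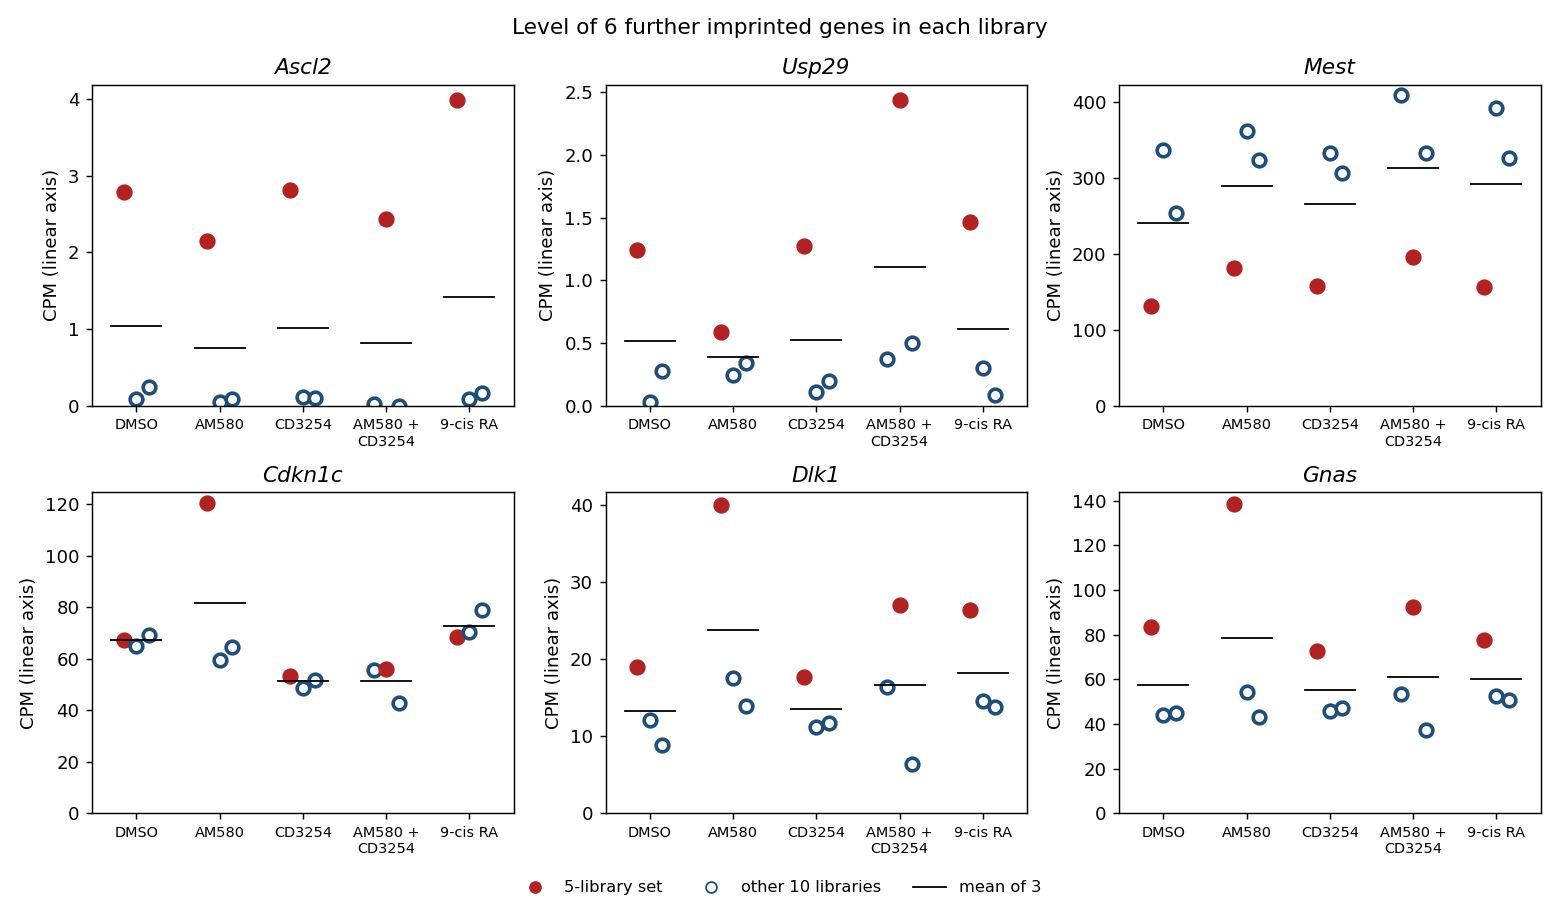
Level in CPM on a linear axis of Ascl2, Usp29, Mest, Cdkn1c, Dlk1 and Gnas in each of 15 libraries, by treatment; filled points are the 5-library set, open points the other 10 libraries, and the bar is the mean of 3. Filled points lie above all open ones for Ascl2, Usp29, Dlk1 and Gnas and below them for Mest, at 132 to 197 against 254 to 409 CPM.

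Mest, a paternally expressed gene for a hydrolase-like protein of the endoplasmic reticulum, went the opposite way to H19. It was at 132, 338 and 254 CPM in DMSO, 182, 363 and 324 with AM580 and 159, 333 and 308 with CD3254. It was 409, 197 and 333 CPM with the joint treatment and 157, 392 and 327 with 9-cis retinoic acid. The 5-library set was lowest in every treatment, with a median of 159 CPM against 333 CPM in the other 10. With the joint treatment against DMSO the log2 change of Mest was 0.41 ± 0.14 (edgeR FDR = 0.762), which did not pass. Copg2, a coatomer subunit gene whose last exons overlap those of Mest on the opposite strand by 912 bases, was higher in the 5-library set, at 82.2 to 92.9 against 61.6 to 81.2 CPM. No source used here gives the strand setting of the counts, so whether reads in the shared bases were told apart is not known. The sets parted in opposite directions for the 2 genes, and the part of the shared bases in their levels was not tested.

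On chromosome 6 the paternally expressed, retrotransposon-derived Peg10 ranged from 91.3 to 240 CPM, Sgce, the gene for epsilon-sarcoglycan, from 52.8 to 82.4 CPM, and Ppp1r9a, for the actin-binding protein neurabin, from 26.2 to 87.1 CPM. Sgce and Peg10 start beside each other and were both lower in the 5-library set in most treatments, Sgce in 5 of 5 and Peg10 in 4 of 5, with ranges that met. With CD3254 against DMSO, Sgce had the smallest p of the list, with a log2 change of -0.26 ± 0.11 (edgeR FDR = 1.00), beside 0.34 ± 0.23 for Peg10 and 0.27 ± 0.26 for Ppp1r9a. None of the 3 passed.

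At the Dlk1-Meg3 locus on chromosome 12 only Dlk1, a paternally expressed gene for a membrane protein of the Notch ligand family, was above 5 CPM. It was at 19, 12.1 and 8.85 CPM in DMSO, 40.0, 17.5 and 13.9 with AM580 and 17.8, 11.2 and 11.8 with CD3254. It was 16.4, 27.1 and 6.47 CPM with the joint treatment and 26.4, 14.6 and 13.8 with 9-cis retinoic acid, and each library of the 5-library set was above all others. With AM580 against DMSO the log2 change of Dlk1 was 0.76 ± 0.27 (edgeR FDR = 0.808) and 0.60 without AM580 replicate 1. The maternal noncoding RNAs Rian and Mirg had at most 31 and 15 reads and the paternal, retrotransposon-derived Rtl1 at most 21, and their log2 changes for AM580 against DMSO were -0.71 ± 0.97, -0.40 ± 0.66 and 0.52 ± 0.78. The interval of each of these 3 values held both a 2-fold higher and a 2-fold lower level, so differences of that size were not detectable at these counts.

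The remaining genes lay at other loci, and none passed the threshold in any contrast. Grb10, for an adaptor that binds the insulin and IGF receptors, ranged from 275 to 423 CPM, and Igf2r, for the receptor that clears IGF2, from 205 to 350 CPM. Grb10 was lower in each library of the 5-library set than in any other (275 to 320 against 321 to 423 CPM), and so was Blcap (30.4 to 35.6 against 43.8 to 55.1 CPM), which contains the gene Nnat in an intron. Gnas, for the alpha subunit of the stimulatory G protein, was higher in the 5-library set (72.6 to 139 against 37.2 to 54.3 CPM), as was Snrpn, a gene for a small nuclear ribonucleoprotein (10.2 to 15.6 against 4.19 to 7.36 CPM). For 9-cis retinoic acid against AM580, Snrpn had the smallest p of the list, with a log2 change of -0.32 ± 0.19 (edgeR FDR = 1.00). Snrpn shares exon bases with Gm38393 on the same strand, and its reads are uncertain for that reason. Airn, the antisense RNA of Igf2r, ranged from 3.42 to 8.72 CPM, Nnat from 0.822 to 2.25, Plagl1, a zinc finger gene, from 35.8 to 82.5, Impact, for a regulator of translation control, from 14.4 to 39.0, Rasgrf1, for a Ras exchange factor, from 82.0 to 118, and Zdbf2 from 22.6 to 101.

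Divided by the length of their annotated exons, the mean levels in DMSO ran from 99.6 ± 16.6 CPM per kb for Igf2 (SD, n = 3), 61.2 ± 26.2 for Mest and 51.7 ± 41.8 for H19 down to 0.0186 ± 0.0215 for Rian. Grb10 (36.0 ± 1.30 CPM per kb), Peg3 (34.4 ± 7.83) and Cdkn1c (32.9 ± 1.08) followed H19, and Zim1 (0.288 ± 0.208) stood 25th of 30. Neighbours in this order overlapped in their ranges over the 3 libraries, except between Cdkn1c and Igf2r, Peg10 and Copg2, and Slc22a18 and Nnat. The summed level of the 34 genes was 2618 to 5111 CPM per library. Genes of 1 locus differed widely per length: Peg3 was at 34.4 CPM per kb in DMSO, Zim1 at 0.288 and Usp29 at 0.0285.

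Apart from H19 and Zim1, 28 genes of the list were tested in 11 contrasts, and 0 passed an FDR of 0.05 in any of them by edgeR or by DESeq2. Against DMSO the share of all 16736 genes that passed was 0.0299% with AM580, 0.0239% with CD3254, 0.125% with the joint treatment and 0.0299% with 9-cis retinoic acid. It was 0.012% for the joint treatment against AM580, 0.0299% against CD3254, 0.00598% for 9-cis retinoic acid set against the joint treatment, 0.0% against AM580, 0.0299% against CD3254, 0.012% for AM580 against CD3254 and 0.0% for the interaction. With so few genes passing in each contrast, a count of 0 among 28 is near the background.

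**Figure D3:**
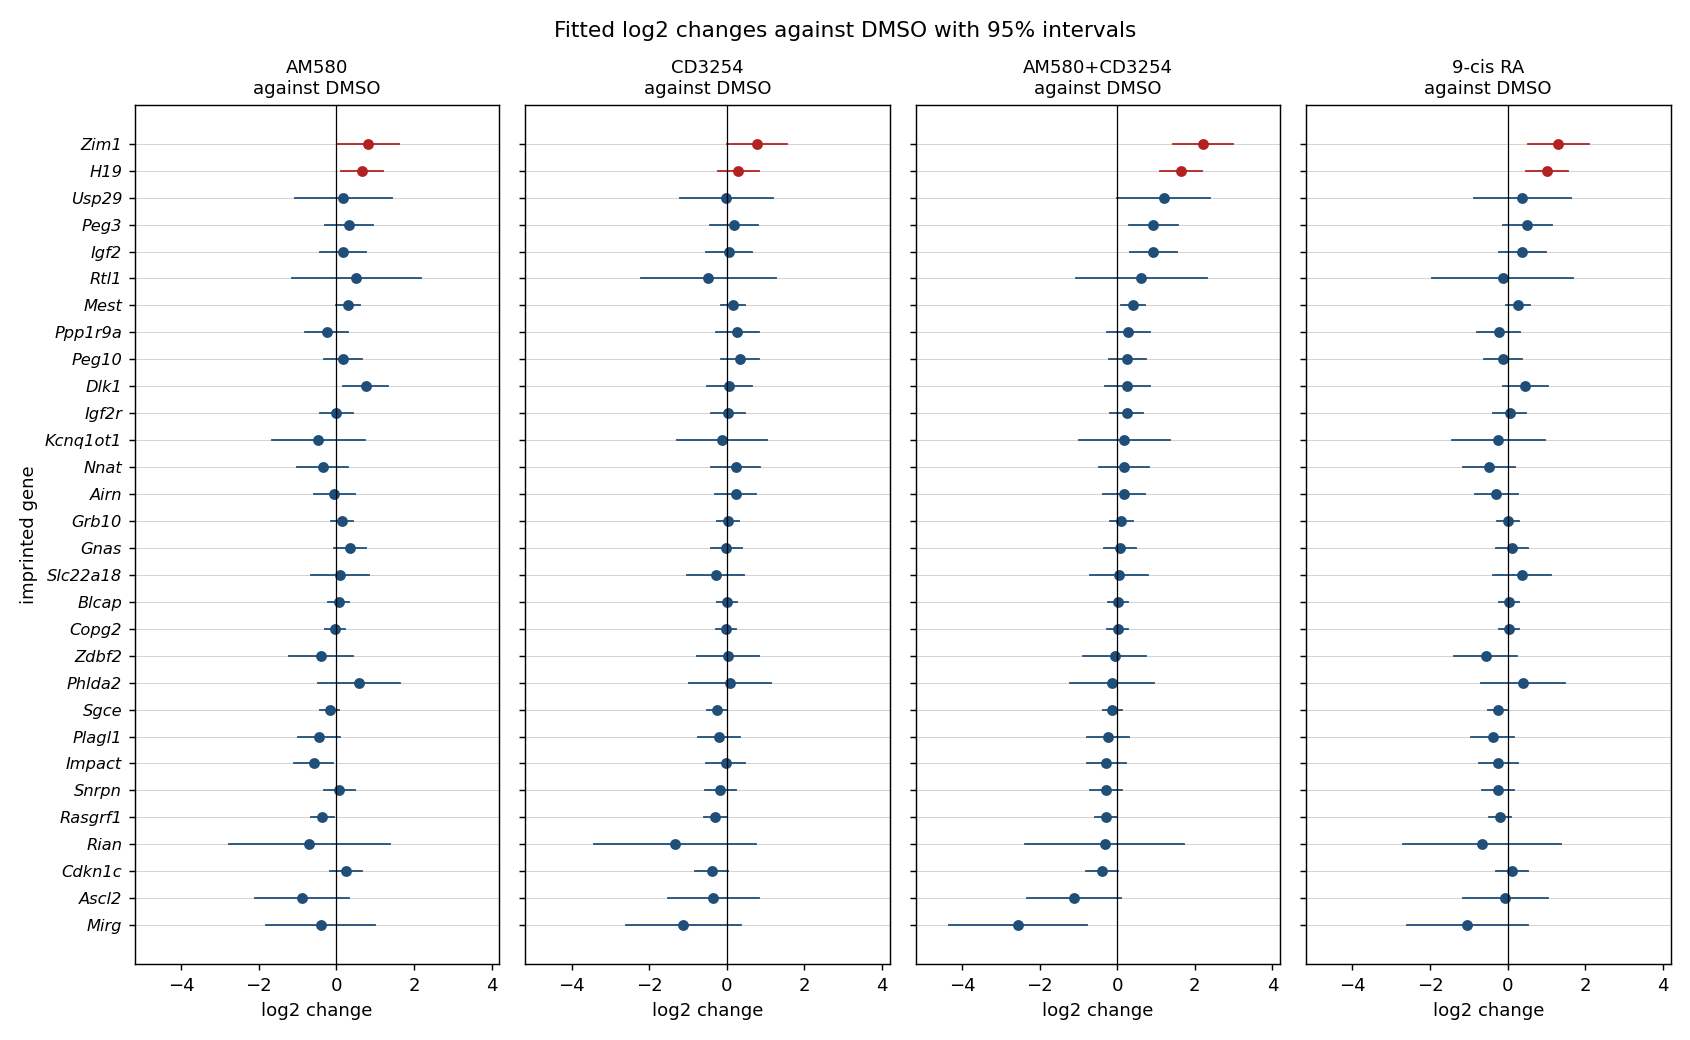
Fitted log2 change with its 95% interval for the 30 genes that passed the filter on low counts, in each treatment against DMSO, from 1 edgeR fit of 15 libraries with the library set as a term; red marks H19 and Zim1, which were picked on the third panel. H19 and Zim1 stand at 1.66 and 2.21 with the joint treatment, and the intervals of most other genes include 0 and are widest for genes with few reads.

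At an unadjusted edgeR p under 0.05 the counts among these 28 genes, set against the share of all genes, were as follows, and the genes are named after their values were seen. With AM580 against DMSO 3 were past it (Dlk1 higher, Impact and Rasgrf1 lower; 4.21% of all genes), and with CD3254 2 (Sgce and Rasgrf1, both lower; 1.98%). With the joint treatment 6 were past it, or 21.4% of the 28 (Igf2, Peg3, Usp29 and Mest higher, Mirg and Rasgrf1 lower; 4.79% of all genes), and nothing is read from that share, because the list was drawn around genes picked on this contrast. With 9-cis retinoic acid 1 was past it (Sgce, lower; 3.97%). The joint treatment against AM580 gave 3 (Igf2 higher, Cdkn1c and Mirg lower; 5.62%) and against CD3254 3 (Igf2, Peg3 and Usp29, all higher; 2.04%). For 9-cis retinoic acid 1 was past it against the joint treatment (Cdkn1c, higher; 3.39%), 0 against AM580 (1.44%) and 2 against CD3254 (Cdkn1c higher, Nnat lower; 3.2%). AM580 against CD3254 gave 3 (Cdkn1c and Dlk1 higher, Impact lower; 3.83%) and the interaction 0 (1.98%). All contrasts with the joint treatment hold libraries on which H19 and Zim1 were picked, and Igf2, Peg3 and Usp29 lie at the loci of these 2. Nothing is read from the counts of those contrasts either. The contrasts share their control libraries, so a gene that recurs does not count anew each time.

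Over the 28 genes the median log2 change was 0.028 with AM580, -0.015 with CD3254, 0.056 with the joint treatment and -0.094 with 9-cis retinoic acid against DMSO, beside 0.0047, -0.0047, -0.0064 and 0.012 over all genes tested. The number above 0 was 14, 13, 17 and 13. With the joint treatment the 28 values ran from -2.56 to 1.20, so the median stands for genes that lay on both sides of 0.

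Across the library sets, 7 of the 30 genes (23.3%) were higher in every library of the 5-library set than in any other library, namely H19, Ascl2, Usp29, Copg2, Dlk1, Snrpn and Gnas. Of all genes tested 13.4% were. Ascl2 passed the low-count filter only through the 5-library set, so the filter fixed its place among the 7, and nothing is read from it. The genes lower without overlap were 3 (10.0%), namely Mest, Grb10 and Blcap, against 12.6% of all genes, and the sets overlapped for the other 20. H19 had a median of 597 CPM in the 5-library set and 81.9 CPM in the other 10, a ratio of 7.28. Both shares are a description, because the sets were read from the same counts. The genes higher in the set include some known as maternally expressed (H19, Ascl2) and some as paternally expressed (Usp29, Dlk1, Snrpn). At the loci of H19, Usp29 and Ascl2 the ranges of Igf2, Peg3, Zim1, Cdkn1c, Phlda2, Slc22a18 and Kcnq1ot1 overlapped between the sets. The median in the 5-library set was 1.49 times that of the other 10 for Igf2. At the Usp29 locus it was 2.05 times for Zim1 and 1.13 times for Peg3. At the Ascl2 locus it was 1.93 times for Slc22a18, 1.77 times for Kcnq1ot1, 1.09 times for Phlda2 and 1.08 times for Cdkn1c. The difference between neighbours was not tested. In bulk RNA, fewer cells that express a gene and less RNA per cell cannot be told apart.

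**Figure D4:**
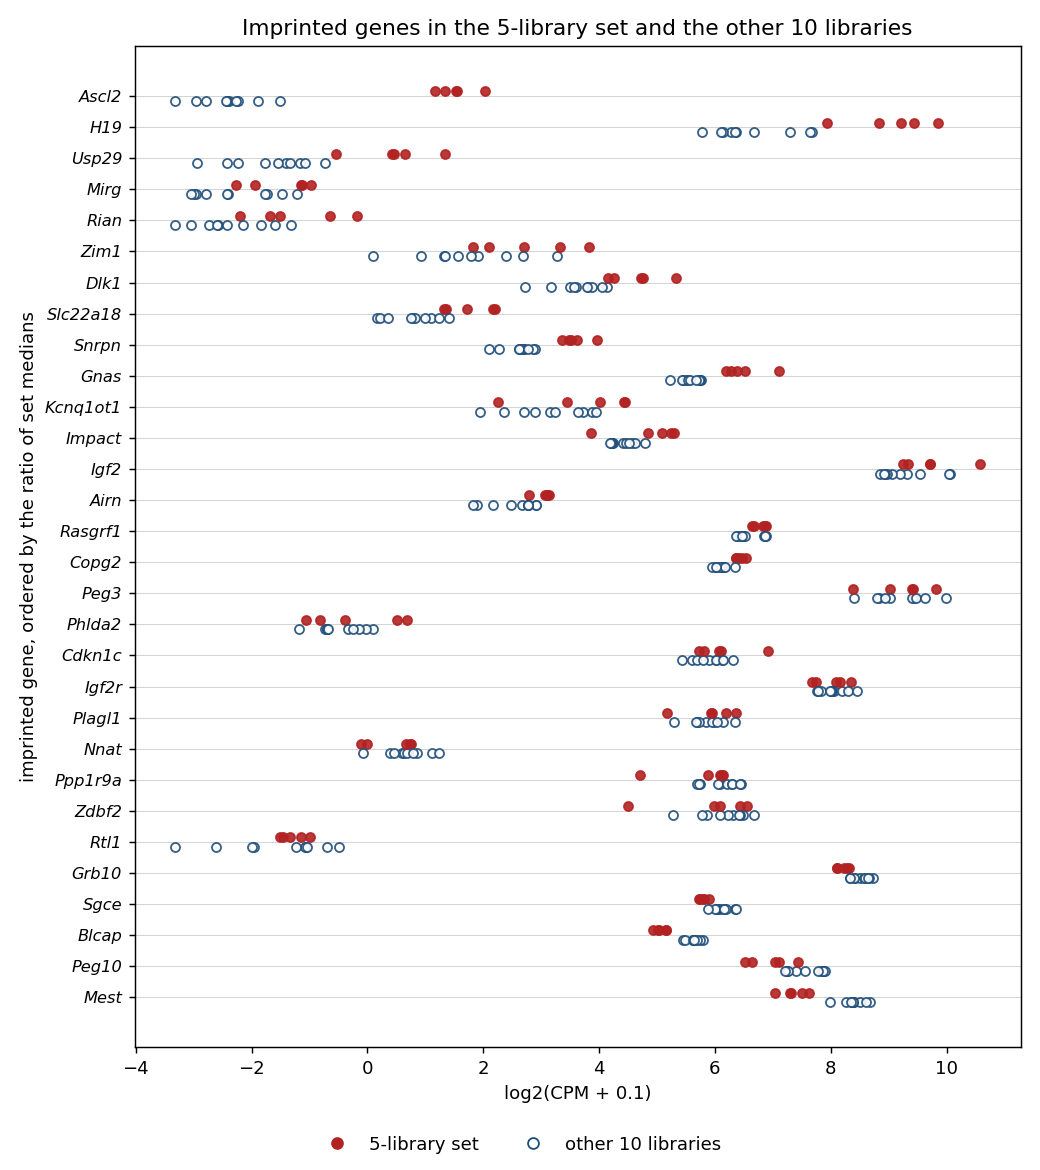
Level of the 30 genes on a log2(CPM + 0.1) scale in each library of the 5-library set (filled) and the other 10 (open), ordered by the ratio of the medians of the sets. Ascl2 (ratio 31.6), H19 (7.28) and Usp29 (4.90) lead the list without overlap, and Mest stands at its end. Ascl2 passed the low-count filter only through the 5-library set.

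Markers moved with the sets as well. The summed level of 5 ductal markers was 33.3 to 43.4 CPM in the 5-library set and 51.4 to 83.6 CPM in the other 10, with Krt7 and Cftr under 1 CPM. The summed level of 3 leukocyte markers was 9.57 to 24.0 against 4.41 to 8.27 CPM, nearly all of it Cd68, with Ptprc and Csf1r near 0. Sums of 5 endocrine markers (243 to 447 against 169 to 361 CPM, nearly all Chga) and of 5 fibroblast markers (182 to 237 against 180 to 366 CPM) overlapped. The part of these differences in the levels of the imprinted genes was not tested.

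Single libraries also stood out. AM580 replicate 1 was the highest of all 15 libraries for 6 of the 30 genes and the lowest for 8, beside 25.5% and 23.1% of all genes, so its shares of 20.0% and 26.7% were near the background. Replicate 3 of 9-cis retinoic acid stood at 97.1 on the second principal component (15.3% of the variance), above all others. It was the highest for 1 gene (3.33%) and the lowest for 3 (10.0%), beside 15.7% and 13.8% of all genes. Replicate 2 of the joint treatment was the highest for 6 (H19, Igf2, Kcnq1ot1, Zim1, Usp29 and Copg2), or 20.0%, beside 4.99% of all genes, and DMSO replicate 2 was the lowest for 6 (H19, Igf2, Kcnq1ot1, Zim1, Usp29 and Rtl1), or 20.0%, beside 4.79%. Both libraries enter the contrast on which H19 and Zim1 were picked, so these shares draw in part on the values that chose the genes. Without H19 and Zim1 the counts were 4 of 28 in each of these libraries. They still held Igf2 and Usp29, from the loci of the picked genes, so nothing is read from them.

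Further lists give the surroundings of these genes. Of 38 other imprinted genes 23 were tested, of 25 genes for imprint maintenance and chromatin 21, and of 17 genes of the insulin-like growth factor axis 13, and 0 of each passed an FDR of 0.05 in any of the 11 contrasts by edgeR or DESeq2. With the joint treatment against DMSO the median log2 change was -0.043, 0.093 and 0.32, beside -0.0064 over all genes, and 1, 0 and 1 of them had an unadjusted p under 0.05, counts near the 4.79% of all genes. The one of the growth factor axis was Insr, the insulin receptor gene, with a log2 change of 0.71 ± 0.25 (edgeR FDR = 0.758). The one of the imprinted genes was Tspan32, with at most 12 reads. Dnmt1 and Uhrf1, which keep DNA methylation through cell division, were at 347 to 511 and 271 to 449 CPM, and Zfp57, which guards imprints in early embryos, had at most 2 reads.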

How the data were processed

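RNA was sequenced from 15 libraries of 266-6 cells in 5 treatments of 3. The authors deposited raw, unscaled read counts per Ensembl gene. HISAT2 2.2.1, HTSeq, SAMtools 1.18 and FastQC are named in the submitters' processing notes, as is the mm10 build. The strand setting, counting mode, annotation release, library kit and ligand concentrations were not given in the sources used here. Reads without a gene (18.1% to 28.5%, and 63.0% in replicate 3 of 9-cis retinoic acid) stayed out of library sizes and tests. Gene reads per library were 14600962 to 46801058, and no other column was in the table (0 columns of other samples). Of 43432 gene identifiers 42462 matched a symbol. Coordinates are those of GENCODE annotation on GRCm38, and sequences are RefSeq's on GRCm38.p6.

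Counts were fitted with edgeR 4.0.16 (limma 3.58.1, R 4.3.3): filterByExpr on the groups with a minimum count of 10 (16736 genes kept), TMM factors, and robust quasi-likelihood models of all 15 libraries with a coefficient per group and a term for the library set (9 residual degrees of freedom, median biological coefficient of variation 0.193). In 11 contrasts p-values were two-sided and adjusted by Benjamini-Hochberg over all genes, with a threshold of 0.05. Each SE was taken as the log2 change over the root of F, and intervals cover 95%. The set term was read from the same counts, so p-values rest in part on the data they test, and they measure the spread between these libraries, which may be technical. DESeq2 1.42.0 and other settings served as alternatives.

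The genes, lists and library sets were chosen with earlier results of these data known. Log2 changes are given for H19 and Zim1 in each contrast and for the gene of the list with the smallest p in each contrast. For genes of the same locus they are given in some contrasts only, and others were named after their values were seen. The lists were 38 other imprinted genes, 25 of imprint maintenance and chromatin, 17 of the insulin-like growth factor axis, and markers of acinar, ductal, endocrine, fibroblast, endothelial and leukocyte cells. Endothelial markers (Pecam1, Cdh5) summed to 0.151 to 0.822 CPM.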

Additional observations from a re-analysis of the deposited data

How the results depend on the processing

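The count of imprinted genes past an FDR of 0.05 with the joint treatment against DMSO, 2 for H19 and Zim1 with the library set term, was 0 without the term, 0 with a replicate block in place of the term and 0 in the 10-library set alone, and ranged from 0 to 2 when 1 library at a time was left out. It was 2 with a replicate block beside the term, by DESeq2, with RLE size factors and with no low-count filter. For the joint treatment against CD3254 the count was 0, and 1 (H19) by DESeq2 and with no low-count filter, and 0 to 1 when 1 library was left out, with the 1 without AM580 replicate 1. Both contrasts hold the joint libraries on which H19 and Zim1 were picked, so nothing is read from these calls. The counts of the other 9 contrasts stayed at 0 under every setting. Of 68 log2 changes followed under 22 settings, 53 kept their sign under all.

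Of the log2 changes that turned in sign, those in the 10-library set alone were -0.15 for Igf2 with CD3254 against DMSO, 0.12 for Kcnq1ot1 with AM580 against CD3254, and -0.11 for Peg3 and -0.36 for Usp29 with 9-cis retinoic acid against AM580. Without the set term they were -0.42 for Usp29 with AM580 against both CD3254 and DMSO, 0.0026 for Usp29 with CD3254 against DMSO, and -0.15 for Zim1 with AM580 against CD3254. The replicate block beside the term gave 0.012 for Usp29 with CD3254 against DMSO. With 1 library left out, Igf2 ranged from -0.28 to 0.46 (9-cis retinoic acid against AM580), -0.16 to 0.57 (against CD3254), -0.12 to 0.61 (against DMSO) and -0.11 to 0.22 (CD3254 against DMSO). In such fits Peg3 ranged from -0.16 to 0.38 (9-cis retinoic acid against AM580), -0.047 to 0.49 (AM580 against CD3254) and -0.086 to 0.30 (CD3254 against DMSO). Usp29 ranged from -0.39 to 0.64, -0.23 to 0.79 and -0.40 to 0.28 in the same contrasts, and from -0.26 to 0.78 with AM580 against DMSO. Kcnq1ot1 (-0.87 to 0.14) and Zim1 (-0.16 to 0.42) for AM580 against CD3254, and Rian (-2.89 to 0.089) and Rtl1 (-0.066 to 1.05) for AM580 against DMSO, also turned. The cause was not tested.

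Whether replicate numbers pair the libraries cannot be told apart from the library set, which holds replicate 1 of every treatment but the joint one. With the set term 10 of 30 same-number pairs of libraries had deviations from the group means correlated above 0.1 (-0.60 to 0.35), and 20 of 30 without it (-0.68 to 0.81). Without the term all same-number pairs outside the joint treatment were positively correlated, from 0.044 to 0.81. The 10-library set gave no value for Ascl2 and Rian, which the low-count filter removed there. Depth limits Rian, Mirg, Rtl1, Usp29 and Phlda2, with at most 68 reads in any library.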

Other observations

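Levels of related genes in the library sets are given here as a description with no test. In the 5-library set Ctcf, the gene for the insulator protein of the H19-Igf2 locus, was at 87.8 to 128 CPM, against 190 to 259 CPM in the other 10 libraries. Dnmt3b, for a de novo DNA methyltransferase, was at 5.61 to 8.65 against 13.8 to 18.5 CPM and Setdb1, for a histone methyltransferase of silenced chromatin, at 52.3 to 81.4 against 104 to 124 CPM. These 3 of 21 tested genes of imprint maintenance (14.3%) were lower without overlap, near the 12.6% of all genes, and 0 were higher, beside 13.4%. With a share near the background, nothing is read from these 3 genes. The part of Ctcf in the levels of H19 and Igf2 was not tested. Dnmt1 and Uhrf1 overlapped between the sets.

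Of 13 tested genes of the insulin-like growth factor axis 4 were higher without overlap (30.8%, beside 13.4% of all genes). The binding protein gene Igfbp7 was at 5.62 to 10.8 against 0.277 to 1.38 CPM, Igfbp2 at 1.22 to 3.20 against 0.226 to 0.530 CPM, and Igfbp4 at 9.03 to 12.8 against 5.83 to 8.81 CPM. Igf2bp2, for a protein that binds Igf2 messenger RNA, was at 2.70 to 4.30 against 1.12 to 2.11 CPM. Of 23 tested genes among the other imprinted ones, 3 were higher (Cd81, Osbpl5 and Begain; 13%, beside 13.4% of all genes) and 5 lower (Pon2, Asb4, Casd1, Klf14 and Ddc; 21.7%, beside 12.6%). The share that was higher was near the background, and nothing is read from either share. Cd81, a tetraspanin gene near Ascl2, was at 334 to 523 against 202 to 276 CPM, and Begain, near Dlk1, at 12.9 to 17.2 against 1.90 to 5.34 CPM. No cause of these differences was tested.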
